A study of Mus musculus with 25 samples.

Results

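The 10 genes described here encode the transcription factors ATF4 and CHOP of the integrated stress response and the factors and effectors around them: Atf4, Ddit3 (CHOP), Atf3, Atf5, Cebpb, Cebpg, Trib3, Ppp1r15a, Nupr1 and Chac1. They were taken by symbol from the deposited expression table, in which all 10 had a row among 30926 genes. Messenger RNA of KPC, a pancreatic ductal adenocarcinoma cell line of C57BL/6 mouse background, was measured in 25 libraries, 5 in each of 5 groups. Cells carrying a first hairpin against Slug (shSlug1), a second one (shSlug2) or a hairpin against luciferase (shLuc) were all kept for 24 h in DMEM without glutamine and with 10% dialysed serum. Parental cells without a hairpin were kept for 24 h in that same medium (starved) or in complete DMEM (control). Dialysed serum is described here only for the medium without glutamine, so against control cells the effects of both cannot be told apart. No hairpin cells in complete medium were measured, so a hairpin group can be set against complete medium only across cell lines. Each hairpin is 1 derivative of the line, and whether the 5 replicates were separate cultures is not stated, so the p-values cover variation among these samples alone, and that variation may be technical.

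When amino acids run short, the kinase GCN2 phosphorylates the translation initiation factor eIF2, which slows protein synthesis in general but favours translation of the Atf4 message. ATF4 then switches on genes of amino acid synthesis and transport, together with other transcription factors, among them CHOP. A feedback arm made of the phosphatase subunit GADD34 (Ppp1r15a) and the pseudokinase TRIB3 limits the response. Much of ATF4 control acts on protein, so the values below describe messages only.

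The libraries held between 158729 and 549893 counts, and levels are given in CPM, a scaling that sets each library to one common total, so that 1 count was worth between 1.82 and 6.30 CPM. The hairpins were checked on Snai2, the gene of Slug, which averaged 6.09 ± 3.75 CPM with shSlug1 and 4.29 ± 2.89 CPM with shSlug2, against 55.9 ± 24.0 CPM with shLuc (SD, n = 5 each). The cytokeratin genes Krt8, Krt18, Krt19 and Krt7 of the labelled epithelial type were present in every group, while Epcam and Cldn4 were too low to be tested. Marker sums of fibroblasts, endothelium and of acinar and islet cells reached at most 18.5, 19.3 and 41.7 CPM in any library, with Col3a1, Cldn5 and Gcg at 0 throughout. Mitochondrially encoded genes took 20.9% of the counts on average with shSlug1, 16.2% with shSlug2, 19.8% with shLuc, 25.1% in starved and 24.0% in control cells. Because whole cultures were measured, a change in the number of expressing cells and a change in message per cell cannot be told apart.

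In the parental line, all 10 genes were higher in starved than in control cells. The gains ran from 1.72-fold for Cebpb to 13.3-fold for Trib3 as ratios of group means, with Atf3 too sparse in control cells for a firm ratio. Nupr1 rose 12.7-fold, Ppp1r15a 10.5-fold and Chac1 9.53-fold, while Atf4 itself rose 4.14-fold and Ddit3 5.73-fold. Across all 12473 genes tested, limma with Benjamini-Hochberg adjustment called 10.8% higher and 11.7% lower in starved than in control cells, at an adjusted p under 0.05. The median log2 fold change was 2.73 over the 10 genes and -0.06 over all genes tested. The libraries of both groups stood fully apart for 9 of the 10 genes, against 15.7% of all genes tested, and overlapped for Cebpb. The 10 genes were chosen with earlier results of these data known, so their shares beside those of all genes are no independent test. All 10 genes passed the minimum of 5 CPM in at least 5 libraries. Trib3 reached 5 CPM in 4 control libraries, so it also needed libraries without glutamine to pass. Atf3 passed only through the groups without glutamine. Atf3 therefore had to be higher in some group without glutamine, so its place in these counts and in the median adds no support.

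**Figure D1:**
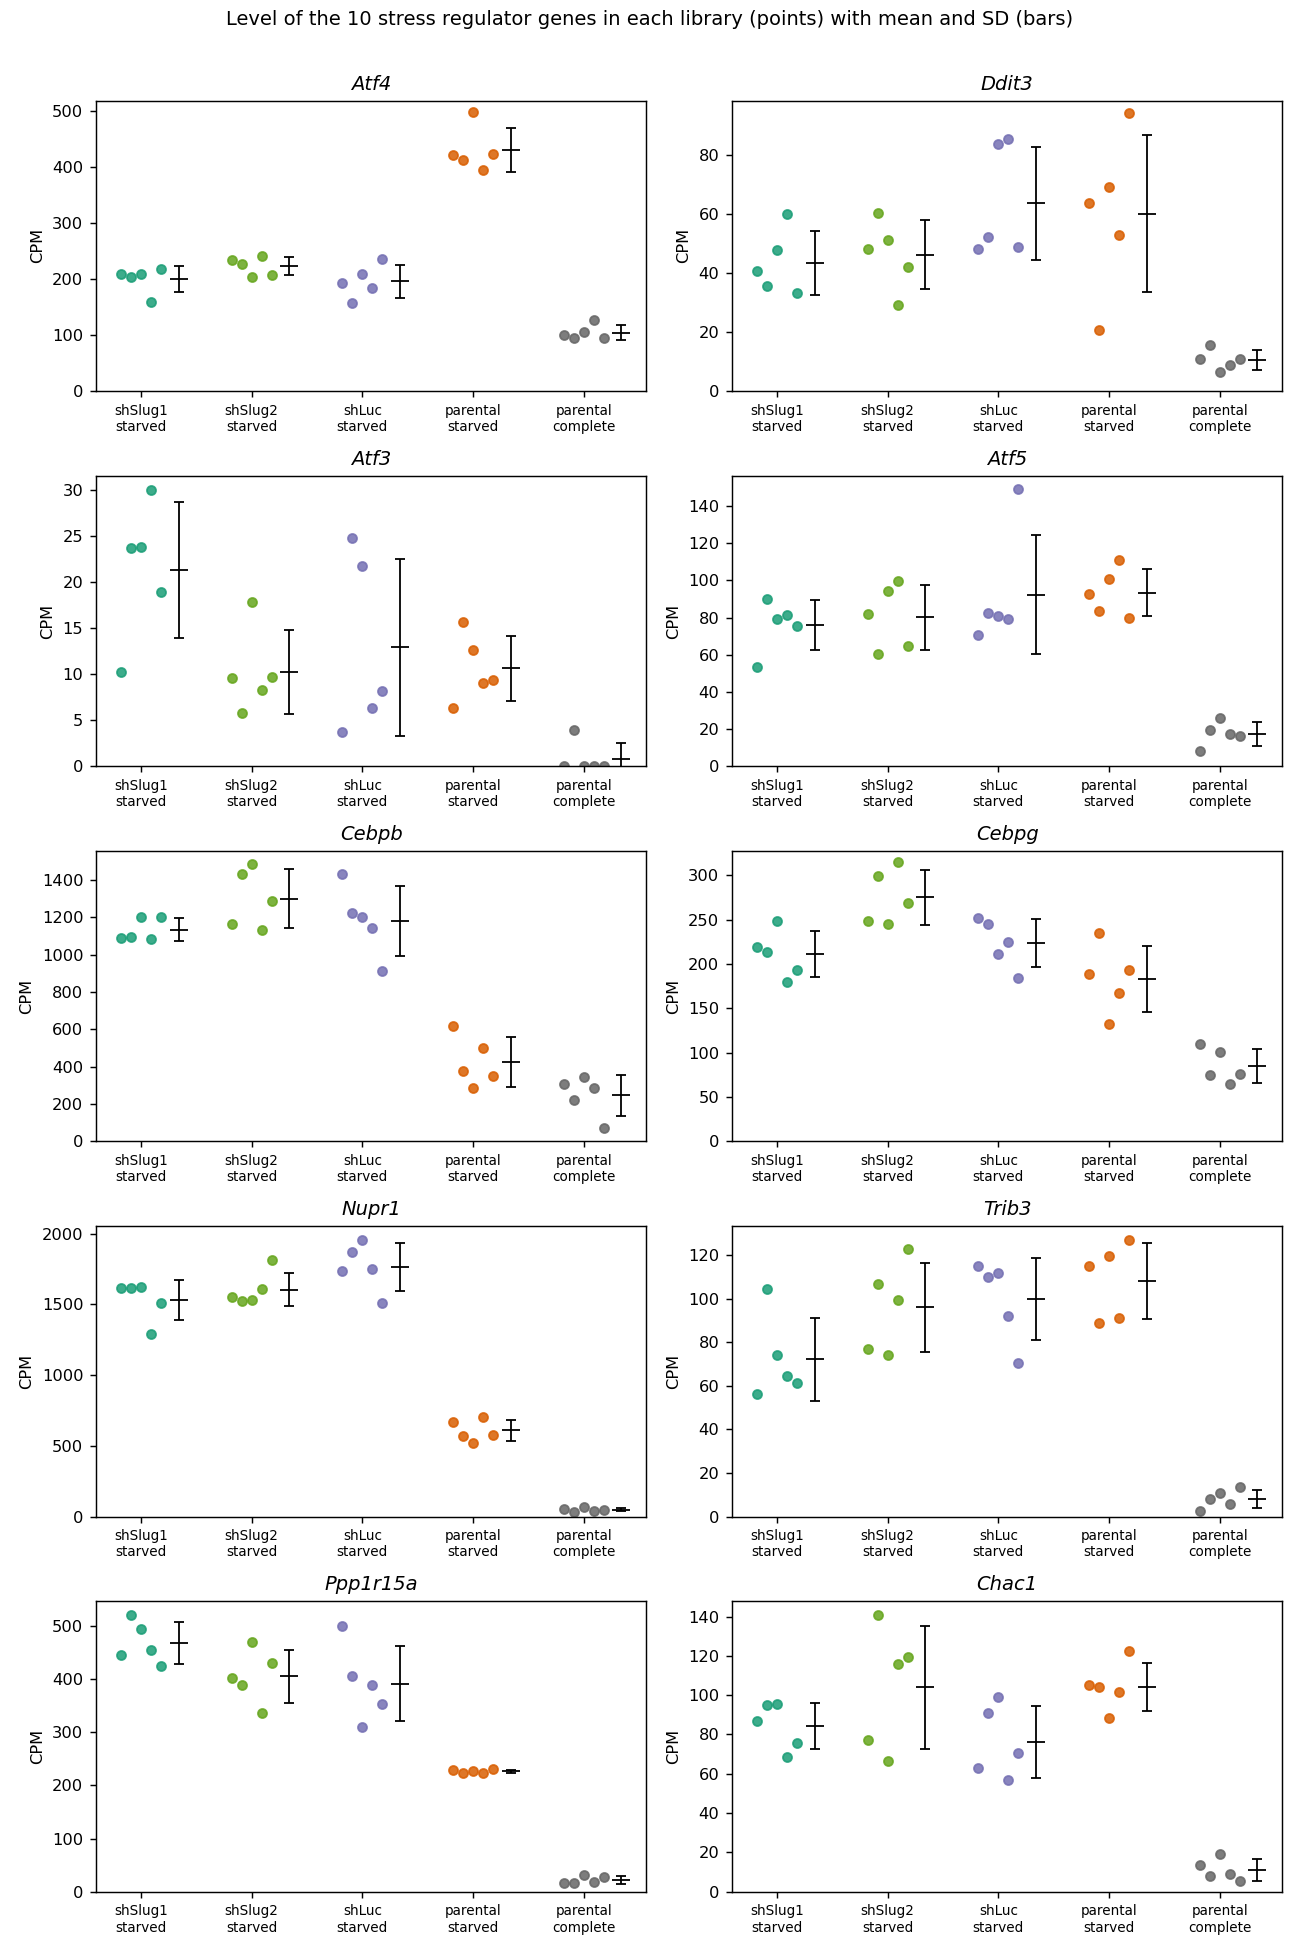
Level of each gene in CPM (vertical axis, linear, a separate scale per gene) in the 25 libraries, with the 5 groups along the horizontal axis; points are libraries and bars are the mean ± SD. Control cells in complete medium have the lowest mean for every gene, starved parental libraries stand above all others for Atf4, and the 3 hairpin groups stand above all others for Nupr1, Cebpb and Ppp1r15a.

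Promoters of the genes that rose together were read for the letters that the ATF4 family is known to bind, from 250 bases before to 50 bases after the RefSeq start site (GRCm38.p6, the build also called mm10). All 10 genes had a promoter entry, 11 entries in all. The C/EBP-ATF response element (CARE), an element bound by ATF4 paired with a C/EBP protein, was searched as TGATGNAAN on both strands. It occurred in Atf3, Chac1, Trib3 and Nupr1, 4 of the 10 genes, and in 3.95% of all 32851 promoters. Among 24 ATF4 target genes with a promoter entry it occurred in 5, including Asns, the asparagine synthetase gene known for its amino acid response element. The cyclic AMP response element TGACGTCA, a palindrome bound by ATF and CREB proteins, was found in Ppp1r15a and in 1.79% of promoters. Its variant TTACGTCA was found in Atf3 and in 0.499% of promoters. The sequences below are shown because they hold these matches, written 5′ to 3′ along the gene, with the match in capitals. The CARE stretches lie at chr1:191183406-191183474 (Atf3, minus strand), chr2:119351018-119351086 (Chac1, plus strand), chr2:152344029-152344057 (Trib3, minus strand), chr7:126625543-126625611 (Nupr1, minus strand) and chr6:7693194-7693262 (Asns, minus strand).
Atf3 CARE: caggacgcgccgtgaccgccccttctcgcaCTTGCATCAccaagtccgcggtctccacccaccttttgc
Chac1 CARE: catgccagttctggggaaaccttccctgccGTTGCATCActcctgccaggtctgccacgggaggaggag
Trib3 CARE: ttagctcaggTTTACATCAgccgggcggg
Nupr1 CARE: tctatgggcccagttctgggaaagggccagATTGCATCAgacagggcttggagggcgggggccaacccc
Asns CARE: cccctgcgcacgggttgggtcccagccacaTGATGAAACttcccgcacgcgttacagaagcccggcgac
The other stretches lie at chr7:45526263-45526310 (Ppp1r15a, minus strand) and chr1:191183326-191183373 (Atf3, minus strand).
Ppp1r15a cyclic AMP response element: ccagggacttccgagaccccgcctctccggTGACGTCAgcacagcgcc
Atf3 variant element: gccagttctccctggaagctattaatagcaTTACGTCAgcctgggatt
In Atf3, Chac1, Trib3 and Nupr1 the CARE letters read along the opposite strand, so that their complement is printed, and in Asns they read along the gene. The first printed capital lay at position -111 in Atf3, -194 in Chac1, 14 in Trib3, -111 in Nupr1 and -23 in Asns, counted from the start site. The CARE letters were not present in the windows of Atf4, Ddit3, Atf5, Cebpb, Cebpg and Ppp1r15a. A match is a description of the letters and was not tested for binding.

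Atf4, the transcription factor at the head of the pathway (ENSMUSG00000042406.7, chr15:80255184-80257541, plus strand, mm10), had 421, 412, 498, 395 and 423 CPM in the starved libraries, against 99.1, 94.5, 105, 126 and 94.5 CPM in the control libraries. Every starved library stood far above every control library, and starved replicate 3 stood above the other starved libraries. The log2 fold change on the log2(CPM + 1) scale was 2.04 (SE 0.14, limma adjusted p = 2.9e-19). Ddit3, which encodes CHOP, a factor tied to growth arrest and cell death (ENSMUSG00000025408.15, chr10:127290774-127296288, plus strand), had 63.8, 20.8, 69.3, 52.7 and 94.1 CPM in starved libraries, against 10.7, 15.8, 6.43, 8.79 and 10.8 CPM in control libraries. Starved replicate 2, with 4 counts, came closest to the control libraries, and the groups did not overlap. The log2 fold change was 2.31 (SE 0.31, limma adjusted p = 2.3e-08). The annotation holds a second Ddit3 entry on the same strand, sharing 2925 bases, and the methionyl-tRNA synthetase gene Mars overlaps it by 68 bases on the opposite strand. The sources used here do not say how reads shared by such entries were counted, which makes the Ddit3 level uncertain. Mars itself averaged 50.8 ± 16.5 CPM in starved and 45.9 ± 18.5 CPM in control cells (SD, n = 5 each; limma adjusted p = 0.72).

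Among the bZIP factors that ATF4 and CHOP work with, Atf5 rose 5.36-fold, and the C/EBP genes had the smallest log2 fold changes of the 10 genes. Atf5 encodes a factor under the same kind of translational control as ATF4 (ENSMUSG00000038539.15, chr7:44812256-44816658, minus strand). It had 92.5, 83.4, 101, 111 and 79.95 CPM in starved libraries, against 8.03, 19.7, 25.7, 17.6 and 16.2 CPM in control libraries, with no overlap. Its log2 fold change was 2.43 (SE 0.24, limma adjusted p = 1.5e-12). Il4i1 overlaps Atf5 on the opposite strand by 272 bases and averaged 70.1 ± 22.0 CPM in starved and 59.1 ± 19.9 CPM in control cells (SD, n = 5 each; limma adjusted p = 0.52). Nup62, which shares 571 bases with Atf5, reached at most 6.46 CPM in any library. Atf3 encodes a stress-induced regulator that forms dimers with other bZIP proteins (ENSMUSG00000026628.13, chr1:191170296-191218039, minus strand). It had 6.38, 15.6, 12.6, 9.09 and 9.41 CPM in starved libraries, from 14 counts in all, against 3.94 CPM from 1 count in control replicate 2. The other 4 control libraries had 0 counts, which allows up to between 6.43 and 8.79 CPM in each. Pooled counts gave a ratio of 17.7 with a 95% counting interval of 2.70 to 749, which leaves the size of the rise uncertain. The log2 fold change was 3.02 (SE 0.63, limma adjusted p = 0.00018). Because Atf3 passed the minimum level only through groups without glutamine, this p-value is no independent support for the rise.

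Cebpb encodes C/EBPβ, a partner of CHOP and ATF4 (ENSMUSG00000056501.3, chr2:167688915-167690418, plus strand). It had 618, 375, 284, 500.1 and 348 CPM in starved libraries, against 308, 221, 347, 287 and 70.2 CPM in control libraries. The groups overlapped, since starved replicate 3 lay below control replicates 1, 3 and 4, and control replicate 5 lay far below its group. The log2 fold change was 0.91 (SE 0.20, limma adjusted p = 0.00028), and without control replicate 5 it was 0.51 (adjusted p = 0.0061). Tmem189, which overlaps Cebpb by 908 bases on the opposite strand, averaged 13.9 ± 7.63 CPM in starved and 6.83 ± 5.42 CPM in control cells (SD, n = 5 each; limma adjusted p = 0.14). Cebpg encodes C/EBPγ, a binding partner of ATF4 (ENSMUSG00000056216.9, chr7:35046422-35056573, minus strand). It had 188, 234.5, 132, 167 and 193 CPM in starved libraries, against 109.8, 74.8, 101, 64.4 and 75.6 CPM in control libraries. Every starved library lay above every control library, at a log2 fold change of 1.10 (SE 0.16, limma adjusted p = 7.1e-08). Gm44836, which overlaps Cebpg by 1140 bases on the same strand, reached at most 14.1 CPM in any library. Gm45094 shares 617 bases on that strand, and no level was available for it.

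Both feedback genes rose more than 10-fold as ratios of group means. The 95% intervals of the limma folds reached down to 9.15 for Trib3 and 8.43 for Ppp1r15a. Trib3 encodes a pseudokinase that is induced by ATF4 and CHOP and restrains them (ENSMUSG00000032715.9, chr2:152337422-152344032, minus strand). It had 115, 88.6, 119.7, 90.9 and 127 CPM in starved libraries, against 2.68, 7.88, 10.7, 5.86 and 13.5 CPM in control libraries, where each value rests on 1 to 5 counts. The groups stood far apart, at a log2 fold change of 3.71 (SE 0.26, limma adjusted p = 9.8e-19). Ppp1r15a encodes GADD34, which directs protein phosphatase 1 to eIF2 (ENSMUSG00000040435.12, chr7:45522916-45526268, minus strand). It had 229.5, 224, 227, 224 and 230.5 CPM in starved libraries, against 16.1, 15.8, 32.2, 17.6 and 27.0 CPM in control libraries. The starved libraries were nearly level with each other, with an SD of 3.08 CPM, less than the 31.0 CPM that counting error alone gives. Such closeness cannot be read as a trait of the gene. The log2 fold change was 3.39 (SE 0.15, limma adjusted p = 1.8e-27). Tulp2, which overlaps it by 717 bases on the opposite strand, reached at most 6.20 CPM in any library.

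Both effector genes rose as well. Nupr1 encodes a small stress-induced nuclear protein first described in inflamed pancreas of the rat (ENSMUSG00000030717.9, chr7:126623249-126630861, minus strand). It had 666, 568, 523, 706 and 578.5 CPM in starved libraries, against 53.6, 35.5, 64.3, 38.1 and 48.6 CPM in control libraries. The groups stood far apart, at a log2 fold change of 3.66 (SE 0.12, limma adjusted p = 6.0e-35), the smallest adjusted p of the 10 genes. Chac1 encodes an enzyme that breaks down glutathione (ENSMUSG00000027313.3, chr2:119351229-119354381, plus strand). It had 105, 104, 88.2, 102 and 122 CPM in starved libraries, against 13.4, 7.88, 19.3, 8.79 and 5.40 CPM in control libraries. The groups did not overlap, and the log2 fold change was 3.25 (SE 0.25, limma adjusted p = 5.7e-17).

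Markers of the labelled cell type moved in the same comparison. All 6 epithelial markers with enough counts to be tested were lower in starved than in control cells, and the 8 listed markers summed to between 2073 and 2624 CPM in starved libraries, against 4211 to 5307 CPM in control libraries. The leucocyte marker sum was 9.41 to 31.5 CPM in starved libraries and 55.1 to 81.5 CPM in control libraries, most of it Cd14. Their part in the rise of the 10 genes was not tested.

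**Figure D2:**
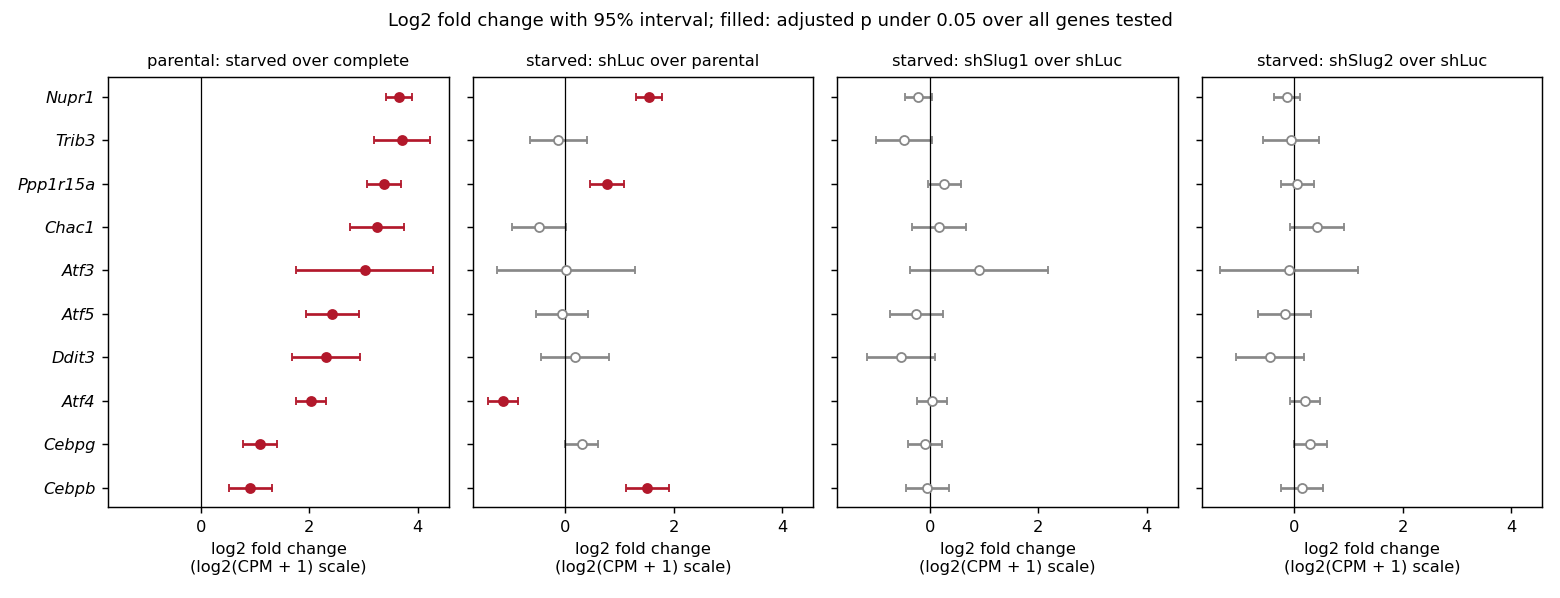
Log2 fold change (horizontal axis, log2(CPM + 1) scale) with its 95% interval from limma for each gene in 4 comparisons; filled points have an adjusted p under 0.05 over all genes tested and open points do not. All 10 genes are filled and to the right of 0 for starved over control cells, 4 are filled for shLuc over starved cells, and none is filled for either Slug hairpin over shLuc.

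The hairpin control line, held in the same glutamine-free medium, differed from the parental starved cells in 4 of the 10 genes, and in opposite directions. Atf4 was lower with shLuc, at 0.455 times the parental starved mean, while Nupr1 was 2.90-fold, Cebpb 2.78-fold and Ppp1r15a 1.73-fold higher. Over all genes tested, limma called 13.5% higher and 10.1% lower in this comparison, and with scaling that left out mitochondrial genes the balance turned, to 1428 genes higher and 1527 lower. The median log2 fold change was 0.10 over the 10 genes and 0.10 over all genes tested. The libraries stood fully apart for 4 of the 10 genes, the same 4 that were called, against 14.6% of all genes tested. The carriage of a hairpin and the separate derivation of the line cannot be told apart here.

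With shLuc, Atf4 had 193, 157, 208, 184 and 236 CPM, below every one of the starved libraries given above and above every control library. Its log2 fold change against starved cells was -1.14 (SE 0.14, limma adjusted p = 1.9e-09). Nupr1 had 1739, 1872, 1957, 1747 and 1509 CPM with shLuc, each more than the highest starved library, at a log2 fold change of 1.54 (SE 0.12, limma adjusted p = 6.8e-16). The gene of the lead transcription factor and a gene known as its target therefore stood on opposite sides of the parental starved cells.
Cebpb had 1435, 1224, 1200, 1143 and 912 CPM with shLuc, and Ppp1r15a had 501, 407, 310.1, 389 and 353 CPM. Both lay clear of the starved libraries. The log2 fold changes were 1.51 for Cebpb (SE 0.20, limma adjusted p = 1.6e-08) and 0.77 for Ppp1r15a (SE 0.15, limma adjusted p = 0.00011).

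The remaining 6 genes were not called between shLuc and starved cells, and their libraries overlapped. Chac1 averaged 76.1 ± 18.1 CPM with shLuc and 104 ± 12.1 CPM in starved cells, a log2 fold change of -0.47 (SE 0.25, limma adjusted p = 0.16). Cebpg averaged 223 ± 27.2 CPM with shLuc and 183 ± 37.4 CPM in starved cells, a log2 fold change of 0.30 (SE 0.16, limma adjusted p = 0.16). For Ddit3, Atf3, Atf5 and Trib3 the log2 fold changes ran between -0.12 and 0.18, and their adjusted p-values between 0.71 and 0.99. Epithelial markers summed to 4931 to 6441 CPM with shLuc, against 2073 to 2624 CPM in starved libraries, and 5 of the 6 tested were higher with shLuc. Their part in these differences was not tested.

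Both Slug hairpin lines showed the same 4 genes on the same sides of the parental starved cells, a comparison that shares its starved libraries with the one above and is therefore no independent support. Limma called 14.6% of all genes higher and 16.2% lower with shSlug1 than in starved cells, and 16.4% higher and 12.1% lower with shSlug2. Atf4 averaged 200 ± 23.4 CPM with shSlug1 and 222 ± 16.2 CPM with shSlug2, against 430 ± 39.7 CPM in starved cells, with log2 fold changes of -1.11 and -0.94 (limma adjusted p = 2.6e-09 and 1.6e-07). Nupr1 averaged 1530 ± 142 CPM with shSlug1 and 1604 ± 119.7 CPM with shSlug2, against 608 ± 75.2 CPM in starved cells (limma adjusted p = 6.8e-14 and 1.4e-14). Cebpg was called in addition with shSlug2, at a log2 fold change of 0.60 (SE 0.16, limma adjusted p = 0.0021).
Against control cells in complete medium, all 10 genes were higher with shSlug1, with shSlug2 and with shLuc, where limma called 16.9%, 18.9% and 17.3% of all genes higher. For Atf3, which no control library held at 5 CPM or more, the minimum level forced a higher level in some group without glutamine. The direction in Atf3 therefore adds no independent support. The log2 fold change of Nupr1 against control cells reached 4.99 with shSlug1, 5.06 with shSlug2 and 5.20 with shLuc. That of Atf4 was 0.94 with shSlug1, 1.10 with shSlug2 and 0.90 with shLuc.

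No difference between a Slug hairpin and shLuc passed the test in any of the 10 genes. With shSlug1 against shLuc, limma called 0 of the 10 genes and 1.46% of all genes, 182 in all, or 99 without shLuc replicate 5. With shSlug2 against shLuc it called 0 of the 10 and 0.649% of all genes. Between shSlug1 and shSlug2 it called 0 of the 10 and 0.513% of all genes, 64 in all, or 37 without shSlug2 replicate 4. At an unadjusted p under 0.05, limma held 0 of the 10 genes in each comparison with shLuc and 1, Cebpg, between the hairpins. edgeR and DESeq2 on the recovered counts also called 0, with 2, 2 and 3 genes for edgeR and 1, 0 and 2 for DESeq2 at an unadjusted p under 0.05 in the same order of comparisons. With background shares this low, 0 of 10 is close to what the table as a whole gives. The epithelial marker sums of these groups overlapped, at 5092 to 5851 CPM with shSlug1 and 5262 to 6401 CPM with shSlug2, against 4931 to 6441 CPM with shLuc, and of the 6 markers tested 1 was lower with shSlug1 (Krt8) and 1 with shSlug2 (Krt7) than with shLuc.

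The 95% intervals below are those of each fold on its own, not adjusted for the number of genes tested. For Atf4, shSlug1 stood at 209, 204, 209, 159 and 217 CPM and shSlug2 at 234, 227, 204, 240.3 and 207 CPM, over the shLuc range of 157 to 236 CPM. The groups overlapped throughout, and the 95% interval of the fold over shLuc was 0.846 to 1.24 for shSlug1 and 0.946 to 1.39 for shSlug2. Ddit3 had 40.8, 35.5, 47.7, 60.05 and 33.1 CPM with shSlug1 and 48.2, 60.4, 51.1, 29.0 and 42.0 CPM with shSlug2, against 48.2, 52.2, 83.7, 85.5 and 48.9 CPM with shLuc. Its means were lower with both Slug hairpins, but the libraries overlapped, and the intervals of the fold were 0.450 to 1.07 for shSlug1 and 0.475 to 1.13 for shSlug2. For Nupr1 the fold over shLuc had an interval of 0.734 to 1.02 with shSlug1 and 0.771 to 1.08 with shSlug2. Cebpb had intervals of 0.736 to 1.27 with shSlug1 and 0.840 to 1.45 with shSlug2. Those of Atf3, at 0.777 to 4.51 with shSlug1 and 0.390 to 2.26 with shSlug2, were the widest of the 10 genes in these 2 comparisons, and changes of several fold in this gene were not detectable at this depth. Trib3 averaged 72.0 ± 19.2 CPM with shSlug1 and 96.0 ± 20.5 CPM with shSlug2, against 99.8 ± 18.7 CPM with shLuc. Chac1 averaged 84.2 ± 11.8 CPM with shSlug1 and 104 ± 31.2 CPM with shSlug2, against 76.1 ± 18.1 CPM with shLuc. Their libraries overlapped in both comparisons.

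Ordered by mean level, the groups fell into 3 kinds of pattern over the 10 genes. For Ddit3, Atf3, Atf5, Cebpg, Trib3 and Chac1, no neighbours among the 4 groups without glutamine differed by limma at an adjusted p under 0.05, and the step down to control cells did. For Cebpg the ends of that run, shSlug2 and starved cells, did differ, as given above. For Cebpb, Nupr1 and Ppp1r15a, the 3 hairpin groups came first without a called difference between neighbours, then a called step to starved cells and another to control cells. Atf4 was the one gene of the 10 whose starved parental level came first with a called step to the hairpin groups, and those were again a called step above control cells.

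Genes outside the 10 with the level pattern most like that of Atf4 over the 25 libraries were taken by the Pearson correlation of log2(CPM + 1) among 5960 genes with a mean of at least 20 CPM. They were Rars (r = 0.942), the arginyl-tRNA synthetase gene, Ptgs2 (0.932), the inducible prostaglandin synthase gene, Txnip (0.929), which encodes a thioredoxin-binding protein, Itpripl2 (0.926) and Chka (0.906), the choline kinase gene. Rars averaged 211 CPM with shSlug1, 225 CPM with shSlug2, 171 CPM with shLuc, 328 CPM in starved and 95.7 CPM in control cells, which is the same order of starved, hairpin and control levels as Atf4. The genes most like Ddit3 were Zfp655 (0.908), Rab11fip2 (0.885), Acsbg1 (0.871), Cited2 (0.862) and Snhg1 (0.860). These values describe group differences and depth that all genes of a library share, and carry no test.

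Most of the listed targets of ATF4 rose with it in the parental line. This list and those below were chosen with earlier results of these data known, so their shares beside all genes are no independent test. Of 30 listed enzymes, transporters and secreted factors, 27 had enough counts to be tested, and limma called 22 higher and 0 lower in starved than in control cells, where it called 10.8% of all genes higher and 11.7% lower, with a median log2 fold change of 1.39. Cth, Gdf15, Aldh1l2 and Sesn2 averaged 3.26, 4.09, 4.84 and 4.99 CPM in control cells, under the minimum of 5 CPM. They could be tested only with libraries of groups without glutamine, so their higher calls add no independent support. Asns, whose promoter stretch is printed above, averaged 416 ± 54.0 CPM in starved and 100.2 ± 21.0 CPM in control cells (log2 fold change 2.06, limma adjusted p = 3.3e-20). Mthfd2, a mitochondrial folate enzyme, averaged 328 ± 39.5 CPM in starved and 115 ± 12.5 CPM in control cells (limma adjusted p = 8.7e-15). Slc7a1, a transporter of cationic amino acids, averaged 302 ± 36.6 CPM in starved and 83.9 ± 10.03 CPM in control cells (limma adjusted p = 7.0e-14). Slc3a2, the heavy chain shared by several amino acid transporters, averaged 356 ± 60.4 CPM in starved and 141 ± 15.6 CPM in control cells (limma adjusted p = 6.9e-13).

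With shLuc, 13 of the 27 targets were lower and 2 higher than in starved cells, where 10.1% of all genes were lower and 13.5% higher, with a median log2 fold change of -0.52 against 0.10 for all genes tested. Slc7a1 was among the lower ones, at 132 ± 31.7 CPM with shLuc and 302 ± 36.6 CPM in starved cells (limma adjusted p = 7.8e-08). Mthfd2 was lower by a small margin, at 257 ± 20.9 CPM with shLuc and 328 ± 39.5 CPM in starved cells (limma adjusted p = 0.045). Asns and Slc3a2 were not called, with log2 fold changes of 0.15 and 0.23. Chosen after their values were seen, Slc7a11, the cystine transporter, averaged 40.5 ± 21.6 CPM with shLuc and 178 ± 37.9 CPM in starved cells, and Slc1a5, a glutamine transporter, averaged 12.7 ± 8.74 CPM with shLuc and 57.2 ± 26.1 CPM in starved cells (limma adjusted p = 1.3e-08 and 6.5e-05). Gdf15, a secreted stress factor also chosen in this way, was higher, at 75.8 ± 15.9 CPM with shLuc and 47.2 ± 24.0 CPM in starved cells (limma adjusted p = 0.035).
Mthfd2 was higher than with shLuc in both Slug hairpin lines, at 396 ± 61.4 CPM with shSlug1 and 496.5 ± 53.8 CPM with shSlug2, against 257 ± 20.9 CPM with shLuc (limma adjusted p = 0.0042 and 2.4e-06). Both comparisons share the shLuc libraries, so neither is independent support for the other. Shmt2, the serine hydroxymethyltransferase of the same mitochondrial pathway, averaged 172 ± 30.3 CPM with shSlug1 and 138 ± 38.3 CPM with shSlug2, against 106 ± 16.2 CPM with shLuc, and was called for shSlug1 alone (limma adjusted p = 0.037 and 0.62). The difference between the hairpins in Shmt2 was not called (limma adjusted p = 0.55).

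**Figure D3:**
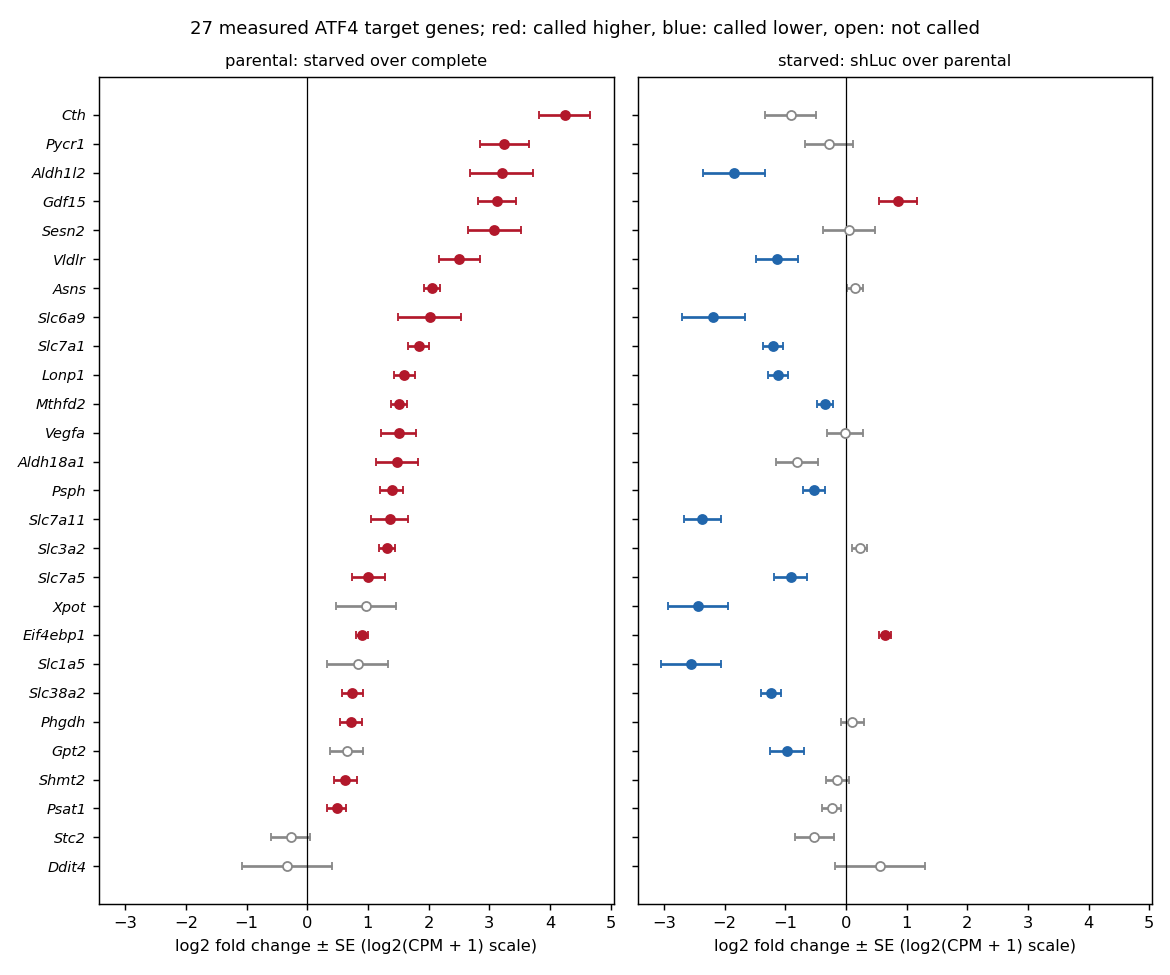
Log2 fold change ± SE (horizontal axis, log2(CPM + 1) scale) of the 27 ATF4 target genes tested, for starved over control cells on the left and shLuc over starved cells on the right; red is called higher, blue called lower and open not called. On the left 22 genes are red and 0 blue, and on the right 2 are red and 13 blue.

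The kinases, initiation factors and phosphatases that feed the pathway were called about as often as other genes in starved against control cells. Of 17 tested, 2 were higher and 2 lower in starved than in control cells, where 10.8% of all genes were higher and 11.7% lower. With shLuc, 2 were higher and 1 lower than in starved cells, against 13.5% and 10.1% of all genes. Eif2s2, the beta subunit of eIF2, averaged 1768 ± 179 CPM in starved and 969 ± 73.5 CPM in control cells (limma adjusted p = 3.3e-11). Ppp1r15b, the constitutive paralog of Ppp1r15a, averaged 71.1 ± 22.9 CPM in starved and 36.3 ± 6.48 CPM in control cells (limma adjusted p = 0.021). Ppp1ca, a catalytic subunit of protein phosphatase 1, averaged 423 ± 27.2 CPM in starved and 596 ± 49.6 CPM in control cells (limma adjusted p = 0.00089). Dnajc3, a chaperone that inhibits eIF2 kinases, averaged 38.3 ± 5.93 CPM in starved and 71.9 ± 18.5 CPM in control cells (limma adjusted p = 0.0063).

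Paralogs and bZIP relatives of the 10 genes did not share one direction. Of 14 tested, 4 were higher and 2 lower in starved than in control cells, where 10.8% of all genes were higher and 11.7% lower. With shLuc, 2 were higher and 4 lower than in starved cells, against 13.5% and 10.1% of all genes. Chac2, the paralog of Chac1 with slower glutathione breakdown, was lower in starved cells, at 10.3 ± 6.80 CPM against 35.4 ± 16.2 CPM in control cells, where Chac1 was higher (limma adjusted p = 0.0011). Batf3, a bZIP factor of immune cells, averaged 2.13 ± 2.92 CPM in starved and 17.1 ± 10.5 CPM in control cells (limma adjusted p = 0.0088). Its means in the 4 groups without glutamine ran from 1.53 to 4.32 CPM, under the minimum of 5 CPM. Batf3 thus passed the minimum level largely through control cells, and its p-value is no independent support for the fall. Cebpz, named with the C/EBP family but without its leucine zipper, averaged 207 ± 17.5 CPM in starved and 113 ± 30.6 CPM in control cells (limma adjusted p = 4.3e-05).

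Of 9 genes tested that are tied to cell death downstream of CHOP, 5 were higher and 1 lower in starved than in control cells, where 10.8% of all genes were higher and 11.7% lower. The lower one, named after its value was seen, was Tnfrsf10b, a death receptor gene also known as a CHOP target, at 3.40 ± 3.78 CPM in starved and 17.4 ± 8.85 CPM in control cells (limma adjusted p = 0.0015). Its starved mean lay under the minimum of 5 CPM, so Tnfrsf10b could be tested only through libraries of other groups. That limits this p-value as support for the fall. Mcl1, a survival protein of the BCL2 family, averaged 146.5 ± 20.5 CPM in starved and 57.5 ± 14.7 CPM in control cells (limma adjusted p = 4.7e-08). Pmaip1 (NOXA) and Bcl2l11 (BIM) are death-promoting members of that family. Pmaip1 averaged 35.2 ± 16.3 CPM in starved and 10.4 ± 3.31 CPM in control cells, and Bcl2l11 averaged 48.8 ± 10.2 CPM in starved and 10.4 ± 10.6 CPM in control cells (limma adjusted p = 1.4e-06 and 2.0e-06). Ero1l, an oxidase of the endoplasmic reticulum known as a CHOP target, averaged 63.3 ± 14.8 CPM in starved and 23.0 ± 3.54 CPM in control cells (limma adjusted p = 4.4e-05). With shLuc, 3 of the 9 were higher and 0 lower than in starved cells, against 13.5% and 10.1% of all genes, among them Pmaip1 at 90.6 ± 18.9 CPM against 35.2 ± 16.3 CPM in starved cells (limma adjusted p = 1.5e-05).

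The other branches of the unfolded protein response, run by ATF6 and XBP1, gave more falls than rises. Of 21 chaperones and regulators tested, 3 were higher and 7 lower in starved than in control cells, against 10.8% and 11.7% of all genes, with a median log2 fold change of -0.33 against -0.06 for all genes tested. The chaperones Calr and Hsp90b1 averaged 302 ± 50.5 and 354.5 ± 91.8 CPM in starved cells, against 558.5 ± 51.5 and 544 ± 66.3 CPM in control cells (limma adjusted p = 0.00018 and 0.00034). Creld2, a stress-induced protein of the endoplasmic reticulum, averaged 32.3 ± 21.6 CPM in starved and 76.0 ± 16.0 CPM in control cells (limma adjusted p = 8.9e-05). Dnajb9, a co-chaperone known as an XBP1 target, rose, at 58.3 ± 12.8 CPM in starved and 13.4 ± 5.25 CPM in control cells (limma adjusted p = 1.7e-06). With shLuc, 2 of the 21 were higher and 5 lower than in starved cells, against 13.5% and 10.1% of all genes.

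**Figure D4:**
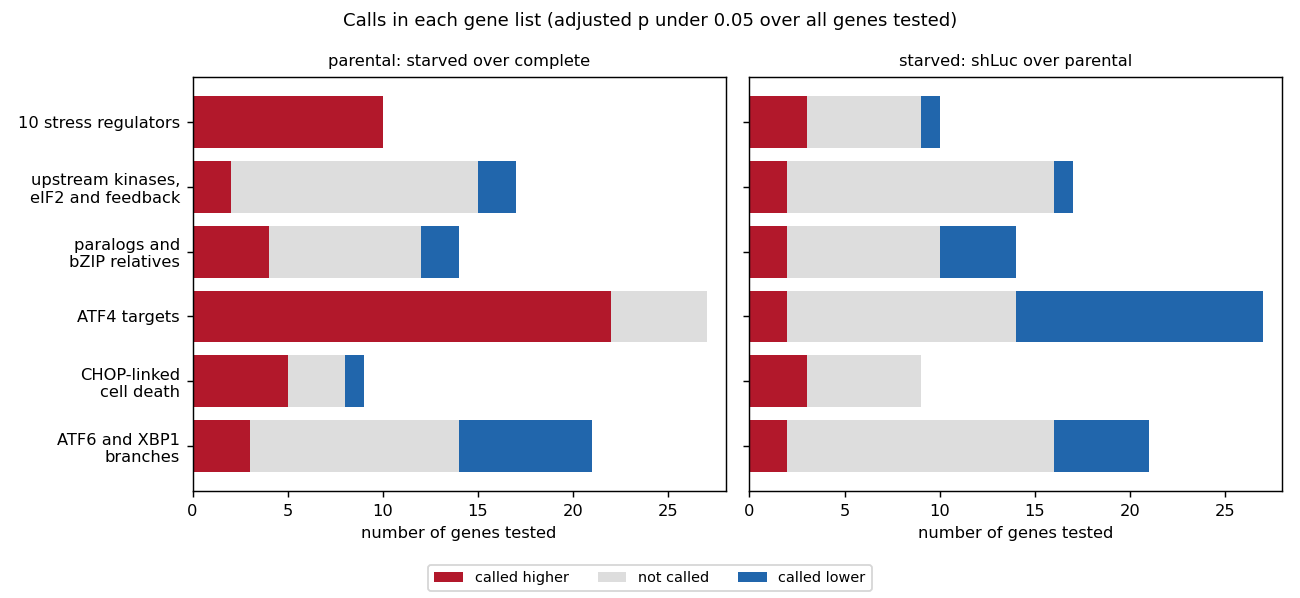
Number of genes tested in each gene list (horizontal axis) that limma called higher (red), called lower (blue) or did not call (grey), for starved over control cells on the left and shLuc over starved cells on the right. All 10 stress regulators and 22 of 27 ATF4 targets are red on the left, while on the right 13 of the 27 targets are blue. The genes of each list were chosen with earlier results of these data known.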

How the data were processed

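Messenger RNA of 25 samples was extracted with a PureLink kit and made into QIAseq UPX 3' libraries, per the labels' protocols. The authors deposited 1 table of CPM for 30926 genes, and the genome build was mm10 per the submitters' processing notes. Not given in the sources used here are the aligner, the annotation, the strand setting and the use of molecular identifiers. Dividing each column by its smallest step gave whole numbers for 100% of values within 0.001, so read counts were recovered. Intervals on counts and floors of 3 counts cover counting error only, since reads may not be independent molecules.

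Comparisons were fitted with limma-trend (version 3.58.1 under R 4.3.3). Values entered as log2(CPM + 1), a scale that understates changes of low genes. All 25 libraries and 5 groups entered the same fit, which left 20 residual degrees of freedom. A gene was tested where 5 or more libraries reached 5 CPM, which left 12473 genes. Tests were two-sided, p-values were adjusted after Benjamini-Hochberg, and calls were made at an adjusted p under 0.05. The fit was tested on simulated data. As alternatives, the pseudocount was set to 0.5 or 5, the filter was dropped or raised to 20 CPM, and values were scaled by TMM, by quantiles or without mitochondrial genes. The fit was also limited to the compared groups or given the replicate number as a block, run with edgeR 4.0.16 or DESeq2 1.42.0, and repeated without each library.

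Coordinates are from GENCODE M21 and promoters from RefSeq. Apart from the 10 genes and Snai2, named genes are up to 4 per list with the smallest p in starved against control cells, up to 2 per list for each Slug hairpin against shLuc where called, and the 5 most alike for Atf4 and Ddit3. Slc7a11, Slc1a5, Gdf15, Cth, Aldh1l2, Sesn2, Tnfrsf10b and the overlapping neighbours of the 10 genes were named outside this rule. The 10 genes and the lists were chosen with earlier results of these data known. The marker symbols Cd3e, Lyz2, Cpa1, Amy2a5 and Sst were not analysed here.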

Additional observations from a re-analysis of the deposited data

Results flagged for a closer look

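In 50 groups of 5 libraries, 4 held a library set apart from the other 4 by a gap larger than Dixon's limit for 5 samples, and chance alone flags about 1 in 20 groups. Atf4 stood at 159 CPM in shSlug1 replicate 4, against 204 to 217 CPM in the other shSlug1 libraries. Mitochondrial genes took 24.3% of the counts of that library and 17.2% to 26.5% over the whole group, and their part in the Atf4 level was not tested. The SD of Atf4 over the shSlug1 libraries was 23.4 CPM, less than the 25.7 CPM that counting error alone gives. Atf4 stood at 498 CPM in starved replicate 3, the shallowest library, against 395 to 423 CPM in the other starved libraries. Its SD over the starved libraries was 39.7 CPM, less than the 42.7 CPM from counting error alone. Atf3 stood at 3.94 CPM, from 1 count, in control replicate 2, while the other control libraries had 0 counts. Atf5 stood at 149 CPM in shLuc replicate 5, against 70.5 to 82.5 CPM in the other shLuc libraries.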

How the results depend on the processing

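Under the 11 alternatives and the 25 fits that each left out a library, the count of called genes among the 10 stayed at 10 for starved against control, 4 for shLuc against starved, and 0 for shSlug1 against shLuc, shSlug2 against shLuc and shSlug1 against shSlug2. Counts over all genes ran from 2374 to 3071 for starved against control and from 2373 to 3216 for shLuc against starved. With shSlug1 against shLuc, edgeR called 298 genes where limma called 182, and leaving out each library gave 99 to 206. With shSlug2 against shLuc, edgeR called 138 and DESeq2 140 where limma called 81. Between the hairpins, TMM scaling gave 38 calls where the unscaled CPM gave 64, and leaving out each library gave 37 to 80. The share of higher calls moved with scaling, to 35.8% from 25.3% with shSlug1 and to 54.3% from 72.8% with shSlug2 under quantile scaling, and to 22.7% from 4.69% between the hairpins without mitochondrial genes. The cause of these moves was not tested.

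Replicate numbers showed little pairing of the samples, with deviations of same-numbered samples correlated at -0.05 to 0.03. In starved against control and shLuc against starved, 3 and 4 of 5 samples correlated best with their own number, at mean correlations of 0.012 and 0.0062. In each comparison between hairpin groups, 0 of 5 did so. With the replicate number as a block, the counts were 2774, 2930, 182, 76 and 57 in the order starved against control, shLuc against starved, shSlug1 and shSlug2 against shLuc, and shSlug1 against shSlug2, and 10, 4, 0, 0 and 0 of the 10 genes.

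Every change of sign concerned a log2 fold change of one of the 10 genes that was called neither before nor after. In shLuc against starved, Atf5 moved to 0.0229 with TMM, 0.0343 with edgeR and 0.00318 with DESeq2, and Atf3 to -0.0844 with quantile scaling and -0.0825 without mitochondrial genes. Leaving out each library there gave -0.282 to 0.331 for Atf3, -0.151 to 0.379 for Ddit3 and -0.248 to 0.0205 for Atf5. In shSlug1 against shLuc it gave -0.136 to 0.0273 for Cebpb and -0.0408 to 0.115 for Atf4. In shSlug2 against shLuc it gave -0.407 to 0.206 for Atf3, -0.0223 to 0.15 for Ppp1r15a, -0.258 to 0.0111 for Atf5 and -0.178 to 0.0265 for Trib3. Quantile scaling put Atf3 at 0.0822 and Ppp1r15a at -0.0607 there, and Ppp1r15a stood at -0.00541 without mitochondrial genes. In shSlug1 against shSlug2, quantile scaling put Atf5 at 0.0140, scaling without mitochondrial genes put Ddit3 at 0.00381, Atf5 at 0.0143 and Nupr1 at 0.0133, and DESeq2 put Atf5 at 0.00313 and Nupr1 at 0.0217. Leaving out each library gave -0.163 to 0.0503 for Atf5 and -0.232 to 0.0270 for Ddit3. Low counts limit Atf3 most, with 1 to 34 counts pooled over a group.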

Other observations

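The 10 genes together took 3474 to 4103 CPM in shSlug1 libraries, 3894 to 4363 CPM with shSlug2, 3541 to 4420 CPM with shLuc and 2054 to 2506 CPM in starved libraries, against 362 to 712 CPM in control libraries. Nupr1 and Cebpb held most of the counts in the hairpin groups, at 2889 and 1916 counts pooled over the shLuc libraries.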
